A study of Mus musculus with 8 samples.

Results

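The transcripts described here are those of 10 chemokine ligands that activated T cells can make, namely Ccl3, Ccl4, Ccl5, Cxcl10, Xcl1, Ccl20, Ccl17, Ccl22, Ccl1 and Ccl2. They were taken as a fixed list of gene symbols from the 22180 genes that the array platform's annotation named. The list was chosen with earlier results of these data known, so counts of ligands beside all genes are descriptions. All 10 ligands were measured, each by 1 transcript cluster. Of these, 9 passed the filter on low values and were tested among 13508 genes, and Ccl1 did not pass. The cells were CD4+CD25- T cells sorted from the spleens of C57BL/6 mice aged 6 to 8 weeks. All samples were stimulated on plates coated with αCD3 and αCD28 antibodies. The duration is uncertain, since the protocols state 48 h but the series design 2 h, and no unstimulated cells were measured. There were 4 groups of 2 arrays: CCR2-/- CD45RBlow, CCR2-/- CD45RBhigh, wild-type CD45RBlow and wild-type CD45RBhigh cells. Naive CD4 T cells carry much of the CD45RB isoform of the phosphatase CD45 on their surface, and antigen-experienced cells carry less. CCR2-/- mice lack the receptor for the chemokine CCL2 in all their cells, so the knockout was not limited to T cells. Within each group the arrays carry replicate numbers 2 and 1. The labels do not state whether the numbers stand for single animals or pools, and the replicate 2 arrays carried both Xist and Y-linked signal (below). Xist and Y-linked transcripts differed between the numbers in every group (below), so the numbers are not repeat arrays of the same cells. The p-values here reflect only how these samples scatter, in which technical and animal differences cannot be told apart.

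Chemokines are small secreted proteins that bind seven-helix receptors on leukocytes and direct their migration. CCL3 and CCL5 bind CCR1; effector T cells release CCL3, CCL4 and CCL5 after antigen receptor stimulation, CCL5 typically later than the other members of this trio. CXCL10 binds CXCR3 and is a classical product of interferon-stimulated cells, XCL1 binds XCR1 on cross-presenting dendritic cells, and CCL20 binds CCR6. CCL17 and CCL22 share CCR4, the receptor of many Th2 and regulatory T cells, CCL1 binds CCR8, and CCL2 binds CCR2 and recruits monocytes.

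Promoter sequence from RefSeq (build GRCm38.p6) was at hand for 7 of the 10 ligands, as the 250 bases before the gene's start, and 3 of these windows are shown because their genes carry the patterns described below: Cxcl10 follows the interferon-response genes, Ccl20 is higher in CD45RBlow cells, and Ccl3 turns with the replicate number. The sequences run 5′ to 3′ on the gene's strand, and capitals mark every match, on either strand, to 4 motifs. The core of the interferon-stimulated response element was searched as GAAA, 2 bases of any kind and GAAA, an NF-kB type site as GGGAA, 3 bases of any kind and CC, an AP-1 site as TGA, 1 base of any kind and TCA, and an NFAT core as GGAAAA.
Cxcl10 (chr5:92348890-92349139, minus strand): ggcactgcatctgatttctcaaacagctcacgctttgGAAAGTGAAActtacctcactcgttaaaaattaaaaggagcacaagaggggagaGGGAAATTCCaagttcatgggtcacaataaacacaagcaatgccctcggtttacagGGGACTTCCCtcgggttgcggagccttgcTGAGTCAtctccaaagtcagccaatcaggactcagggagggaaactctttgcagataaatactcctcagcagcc
Ccl20 (chr1:83116516-83116765, plus strand): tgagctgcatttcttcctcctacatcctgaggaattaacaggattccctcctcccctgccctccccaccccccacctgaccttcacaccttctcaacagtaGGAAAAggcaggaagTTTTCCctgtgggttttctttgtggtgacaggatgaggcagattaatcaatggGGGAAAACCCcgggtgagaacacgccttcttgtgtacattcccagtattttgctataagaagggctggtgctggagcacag
Ccl3 (chr11:83649379-83649628, minus strand): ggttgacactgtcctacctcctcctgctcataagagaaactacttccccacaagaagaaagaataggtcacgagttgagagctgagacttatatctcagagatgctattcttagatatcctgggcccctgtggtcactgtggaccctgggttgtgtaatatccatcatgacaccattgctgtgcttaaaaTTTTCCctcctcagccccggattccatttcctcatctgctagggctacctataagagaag
The Cxcl10 window held the interferon element core 213 to 204 bases before the start, NF-kB type matches at 159 to 150 and at 103 to 94, and an AP-1 match at 74 to 68. The Ccl20 window held NFAT cores at 149 to 144, 134 to 129 and 80 to 75 bases before the start, the last of them inside an NF-kB type match at 81 to 72. The Ccl3 window held 1 NFAT core, at 60 to 55. Among the 7 windows, the interferon element core and the AP-1 motif each stood in 1 (Cxcl10), the NF-kB type motif in 3 (Cxcl10, Ccl20 and Ccl1) and the NFAT core in 3 (Ccl3, Ccl20 and Ccl1). Among all 32851 RefSeq promoter windows of this length, the interferon element core occurred in 2.98%, the NF-kB type motif in 4.94%, the AP-1 motif in 6.75% and the NFAT core in 20.4%. The windows of Xcl1, Ccl17 and Ccl22 held none of these letters.

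Values are log2 expression levels made by the authors with RMA, a method that summarises the probes of a transcript cluster and brings all arrays to a common distribution. Array medians lay between 4.92 and 5.05, and across genes the r between arrays of a group was 0.9903 to 0.9969. CD4 T cell markers were bright on all arrays, as the sort label has it: the 5 measured CD4 T cell markers averaged 11.97 to 12.06 on CD45RBlow arrays and 11.91 to 11.99 on CD45RBhigh arrays. Ccr2 itself read 4.62 to 5.15 in CCR2-/- cells and 4.26 to 4.61 in wild-type cells; the position of its probes relative to the deletion is not known here, so this checks nothing. Replicate number went with sex-linked transcripts in every group: Xist read 11.74 to 12.07 on replicate 2 arrays and 4.45 to 5.02 on replicate 1 arrays, and Y-linked Kdm5d read 7.58 to 7.78 on replicate 2 arrays and 8.83 to 9.13 on replicate 1 arrays. Y-linked signal was thus lower but present on the replicate 2 arrays, where Eif2s3y read 8.47 to 9.11 and Uty 8.19 to 8.59. Those arrays carried it together with Xist, so the numbers cannot be read as female against male cells. Whether animals were pooled was not tested. What else the number marks is not stated, and its part in the results below cannot be told apart from other differences between the numbers.

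**Figure D1:**
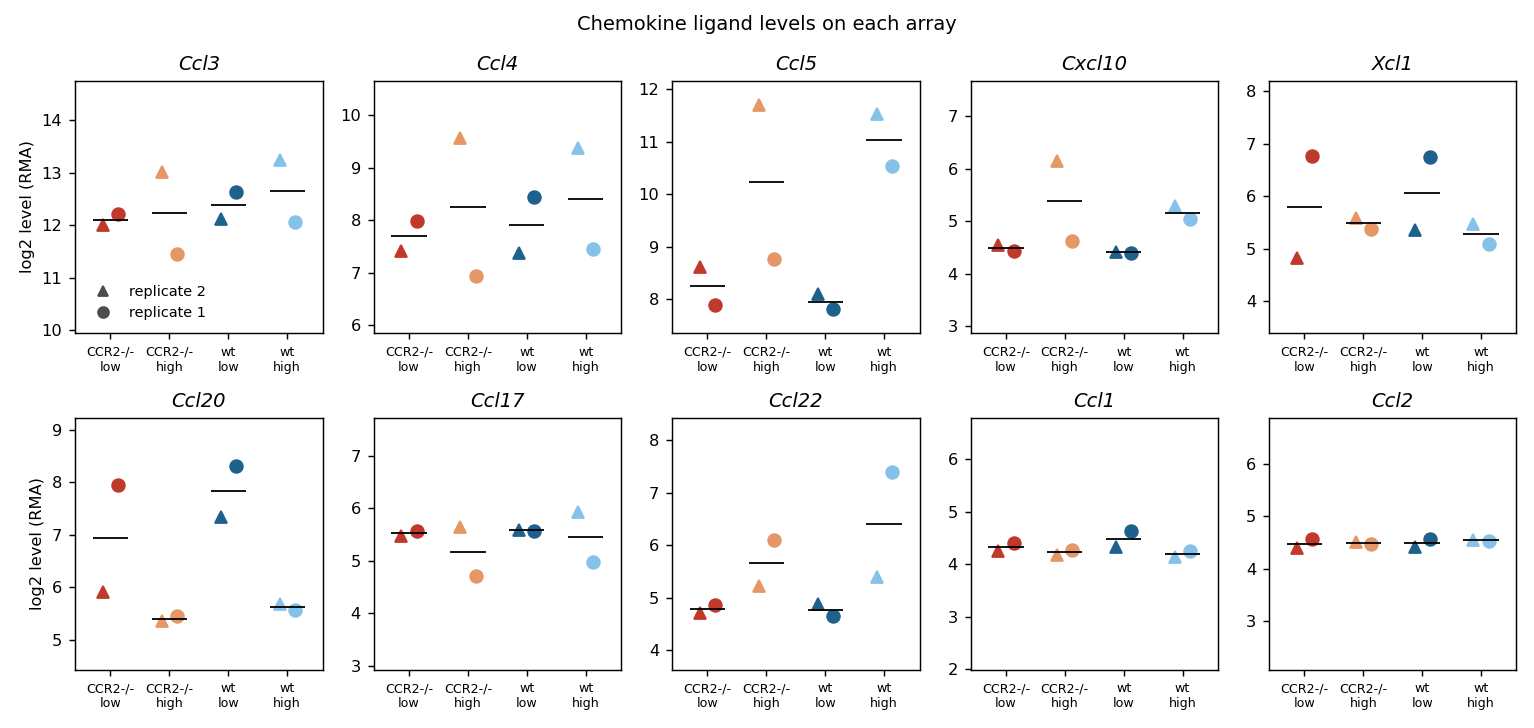
Log2 level (y axis, RMA) of the 10 chemokine ligands on each of the 8 arrays, by group (x axis; wt is wild type, low and high are CD45RBlow and CD45RBhigh), with triangles for replicate 2, circles for replicate 1 and a horizontal line at each group mean; every panel spans the same number of log2 units. Ccl5 runs from 7.81 to 11.71 and Ccl20 from 5.35 to 8.30, while Ccl2 stays between 4.39 and 4.57.

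Ccl5 varied most among the ligands, by 14.9-fold between its lowest and its highest array, and was lower in CD45RBlow than in CD45RBhigh cells. It read 8.62 and 7.89 in CCR2-/- CD45RBlow cells (replicates 2 and 1) and 8.11 and 7.81 in wild-type CD45RBlow cells, against 11.71 and 8.77 in CCR2-/- CD45RBhigh cells and 11.53 and 10.54 in wild-type CD45RBhigh cells. Every CD45RBlow array lay below every CD45RBhigh array, but the CCR2-/- CD45RBhigh array of replicate 1 was only just above them. Group means were 8.25 ± 0.51 in CCR2-/- CD45RBlow, 10.24 ± 2.08 in CCR2-/- CD45RBhigh, 7.96 ± 0.21 in wild-type CD45RBlow and 11.04 ± 0.70 in wild-type CD45RBhigh cells (SD, n = 2 each). The CD45RBhigh groups of both genotypes therefore stood above the CD45RBlow groups, and within each subset the genotypes overlapped. Averaged over the genotypes, CD45RBlow minus CD45RBhigh was -2.53 (SE 0.59, 95% interval -3.92 to -1.14), or 5.78-fold lower in CD45RBlow cells. This did not pass limma's test over all genes (adjusted p = 0.072). With the replicate number as a block, the same difference passed (SE 0.39, adjusted p = 0.0174), beside 3.66% of all genes called lower in that fit. That call was lost without any 1 of 5 arrays, with adjusted p from 0.00142 to 0.0715 over the 8 arrays left out in turn and differences from -3.10 to -1.96.

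By genotype, Ccl5 was 3.96-fold lower in CD45RBlow than in CD45RBhigh cells of CCR2-/- mice (-1.99, SE 0.84, adjusted p = 0.4) and 8.42-fold lower in those of wild-type mice (-3.07, SE 0.84, adjusted p = 0.29). The interaction of genotype and subset was 1.09 (95% interval -1.69 to 3.87, adjusted p = 1.0 by limma), so the data set no close limit on a difference between the genotypes. Within replicate numbers, CD45RBlow minus CD45RBhigh was -3.10 in CCR2-/- replicate 2, -0.88 in CCR2-/- replicate 1, -3.42 in wild-type replicate 2 and -2.73 in wild-type replicate 1. All 4 differences ran the same way, and the CCR2-/- pair of replicate 1 was the smallest.

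Cxcl10 was likewise lower on every CD45RBlow array than on any CD45RBhigh array. It read 4.55 and 4.43 in CCR2-/- CD45RBlow cells (replicates 2 and 1) and 4.42 and 4.40 in wild-type CD45RBlow cells, against 6.15 and 4.63 in CCR2-/- CD45RBhigh cells and 5.30 and 5.04 in wild-type CD45RBhigh cells. The CD45RBlow values sat together at low signal, the lowest at percentile 32.8 of all clusters on an array, and the CCR2-/- CD45RBhigh array of replicate 2 stood above all others, at percentile 63.3. The averaged subset difference was -0.83 (SE 0.29, 95% interval -1.51 to -0.15), or 1.78-fold lower in CD45RBlow cells, and it did not pass limma's test (adjusted p = 0.189, or 0.103 with the block). Cxcl10 was lower in the CD45RBlow array of each of the 4 pairs, by 0.20 to 1.59 on the log2 scale.

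Ccl5 and Cxcl10 correlated with each other over the 8 arrays (r = 0.92) and with the mean of 21 interferon-response genes (r = 0.98 for Ccl5 and 0.96 for Cxcl10); these are descriptions of 8 arrays that share groups and replicate numbers. That mean read 6.51 and 6.22 in CCR2-/- CD45RBlow cells (replicates 2 and 1) and 6.36 and 6.15 in wild-type CD45RBlow cells, against 8.31 and 6.43 in CCR2-/- CD45RBhigh cells and 7.97 and 7.20 in wild-type CD45RBhigh cells. The arrays thus kept the order seen for Ccl5 at the top, with CCR2-/- CD45RBhigh replicate 2 highest. The genes most like Ccl5 over the 8 arrays were Rnf213 (r = 0.990), Usp18 (r = 0.988) and Trim56 (r = 0.988), and those most like Cxcl10 were Slfn5 (r = 0.984), Tsc22d3 (r = 0.976) and Kdm3b (r = 0.975). Usp18, a protease that removes ISG15 from proteins, read 8.23 and 7.40 in CCR2-/- CD45RBlow cells and 7.64 and 6.61 in wild-type CD45RBlow cells, against 11.31 and 7.82 in CCR2-/- CD45RBhigh cells and 11.02 and 9.90 in wild-type CD45RBhigh cells.

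Of 24 listed interferon-response genes, 21 were measured and tested. In the averaged subset comparison 1 of 21 fell in CD45RBlow cells, Oas2 (-0.63, adjusted p = 0.0223), beside 1.93% of all genes, and 0 rose, beside 1.1%, with a median difference of -0.80 over the 21 against -0.01 over all genes. The Oas2 call was lost without any 1 of 6 arrays, that is all but those of CCR2-/- CD45RBhigh cells, with adjusted p from 0.0178 to 0.126. With the replicate block 8 of 21 fell, beside 3.66% of all genes, and 1 rose, beside 1.95%. Those that fell included Ifit1 (-2.74, adjusted p = 0.0176), Usp18 (-2.54, adjusted p = 0.0205) and the transcription factor gene Stat2 (-1.43, adjusted p = 0.0184). Socs1, a feedback inhibitor of cytokine receptors, was the 1 that rose (0.64, adjusted p = 0.0402). With single arrays left out of the blocked fit, the calls of Ifit1 and Stat2 were each lost in 4 of 8 cases (adjusted p up to 0.0687 and 0.0841) and those of Usp18 and Socs1 each in 6 of 8 (up to 0.0848 and 0.171), with no array of CCR2-/- CD45RBhigh cells among those whose removal ended a call.

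**Figure D2:**
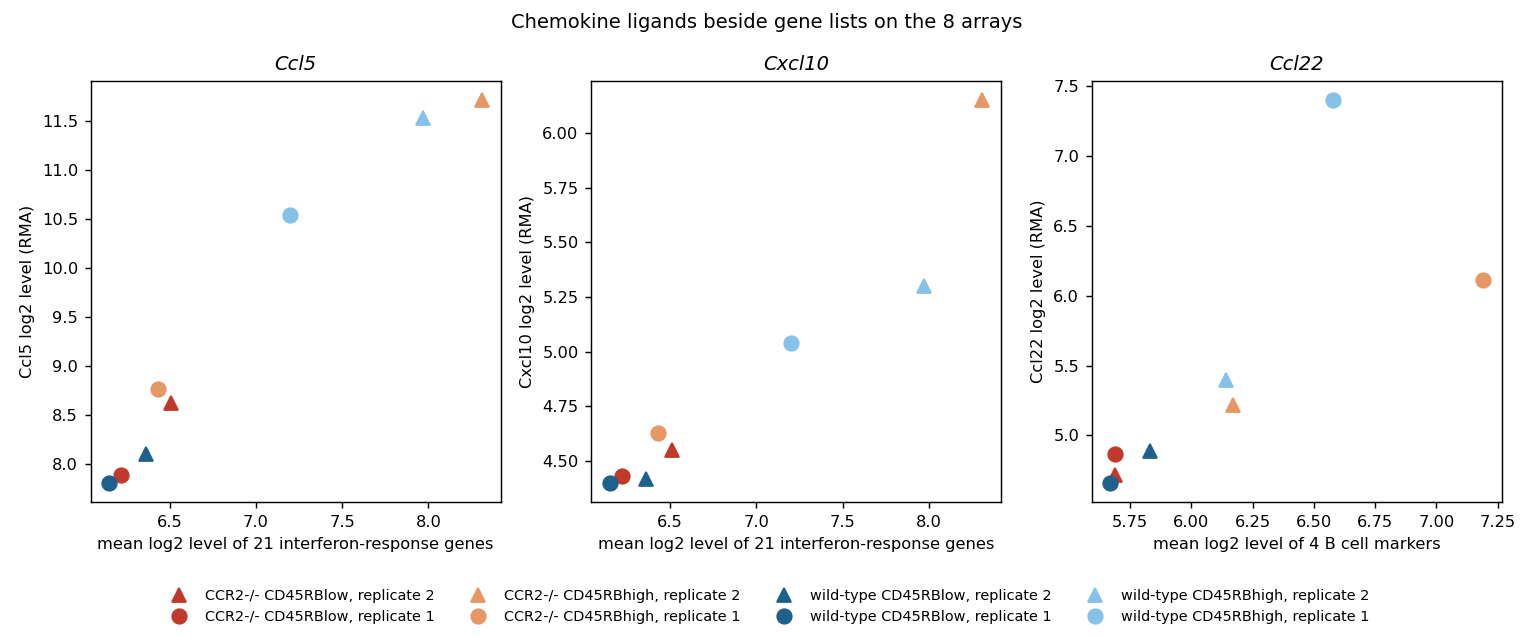
Log2 level of Ccl5 and Cxcl10 (y axes) against the mean log2 level of 21 interferon-response genes (x axes), and of Ccl22 against the mean of 4 B cell markers, with 1 point per array, triangles for replicate 2 and circles for replicate 1. Ccl5 and Cxcl10 rise with the interferon-response mean (r = 0.98 and 0.96), and the highest Ccl22 value, 7.40, lies at the second highest B cell marker mean, 6.58. Among the B cell markers, Cd79a passed the filter only through the CD45RBhigh arrays of replicate 1.

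Ccl3 and Ccl4, which encode the inflammatory chemokines MIP-1α and MIP-1β, moved together (r = 0.97 over the 8 arrays) and did so differently in the replicate numbers. Ccl3 read 12.00 and 12.22 in CCR2-/- CD45RBlow cells (replicates 2 and 1) and 12.12 and 12.64 in wild-type CD45RBlow cells, against 13.02 and 11.46 in CCR2-/- CD45RBhigh cells and 13.24 and 12.06 in wild-type CD45RBhigh cells. It was thus among the brightest clusters of every array, between percentiles 98.1 and 99.9, and the CD45RBlow and CD45RBhigh arrays overlapped. Ccl4 read 7.42 and 7.98 in CCR2-/- CD45RBlow cells and 7.38 and 8.44 in wild-type CD45RBlow cells, against 9.57 and 6.94 in CCR2-/- CD45RBhigh cells and 9.37 and 7.45 in wild-type CD45RBhigh cells. In both genes the CD45RBhigh arrays of replicate 2 were the highest of all, and the CCR2-/- CD45RBhigh array of replicate 1 was the lowest. The records of the 2 genes overlap in RefSeq by position. Their strands were not compared, and whether signal of each reached the other's probes was not tested.

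The subset difference of both genes thus changed sign with the replicate number, in the same way in both genotypes. For Ccl4, CD45RBlow minus CD45RBhigh was -2.15 in CCR2-/- and -1.99 in wild-type cells of replicate 2, and 1.05 in CCR2-/- and 0.99 in wild-type cells of replicate 1. For Ccl3 it was -1.01 in CCR2-/- and -1.11 in wild-type cells of replicate 2, and 0.76 in CCR2-/- and 0.58 in wild-type cells of replicate 1. The averages over both numbers were therefore small beside their errors: -0.20 for Ccl3 (SE 0.38, 95% interval -1.09 to 0.70, adjusted p = 0.857) and -0.53 for Ccl4 (SE 0.64, 95% interval -2.03 to 0.98, adjusted p = 0.756), both by limma.

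A test of the change itself, the subset effect in replicate 2 minus the subset effect in replicate 1, was added after these values had been seen. It gave -3.09 for Ccl4 (SE 0.28, 95% interval -3.77 to -2.41) and -1.73 for Ccl3 (SE 0.20, 95% interval -2.21 to -1.26). Neither passed limma's adjustment over all genes (adjusted p = 0.0925 for Ccl4 and 0.0999 for Ccl3), and 0 of 13508 genes did (0.0%), while 1283 genes (9.5%) and 7 of the 9 tested ligands had an unadjusted p under 0.05. After centring each array on its median, Ccl4 (adjusted p = 5.72e-05), Ccl3 (adjusted p = 0.00165) and Xcl1 (adjusted p = 0.00216) passed, together with Ccl20 and Ccl22, beside 101 genes in all (0.748%). With a mean-variance trend Ccl3 and Ccl4 passed (adjusted p = 0.0378 each), beside 5 genes in all (0.037%). The turn, lower in CD45RBlow cells of replicate 2 and higher in those of replicate 1 in both genotypes, was seen in 5 of 9 tested ligands (Ccl3, Ccl4, Xcl1, Ccl17 and Ccl2) and in 6.28% of all tested genes. Of these ligands Ccl2 ranged over only 0.19 log2 units, near the low end of the signal. The opposite turn was seen in 0 of 9 ligands and 5.23% of genes. With all 4 differences over 0.5 log2 units, a limit chosen after the values were seen, 2 of the 13508 genes (0.0148%) made the turn, Ccl3 and Ccl4.

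**Figure D3:**
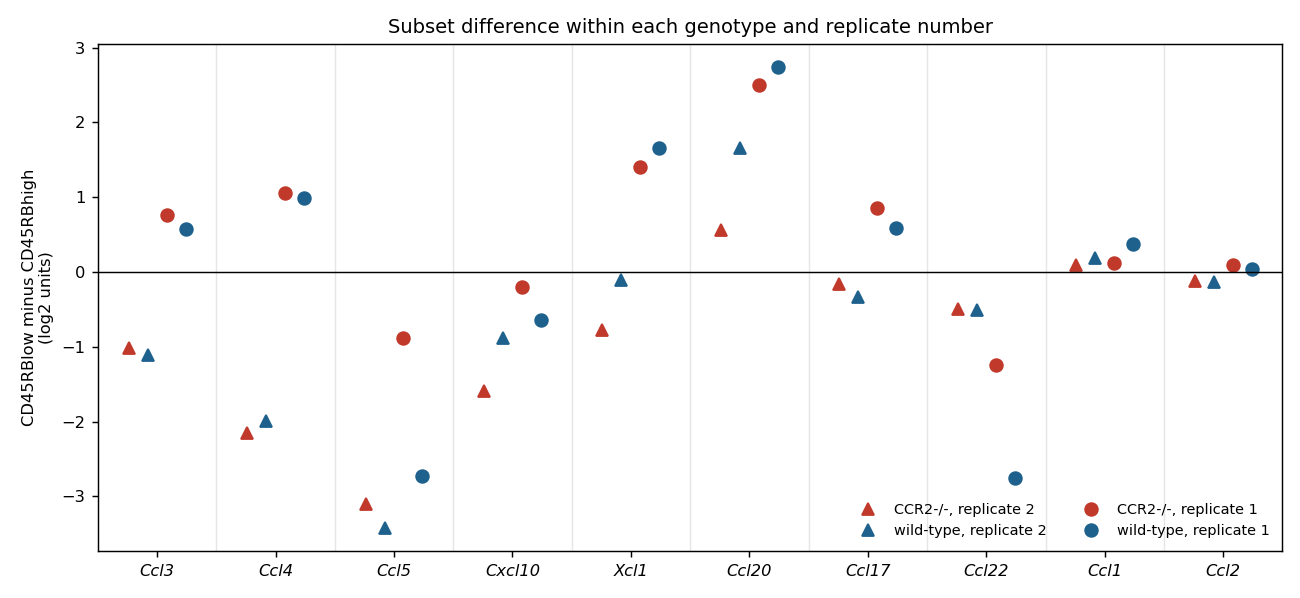
Log2 difference between CD45RBlow and CD45RBhigh arrays (y axis) of the same genotype and replicate number for each ligand (x axis), with triangles for replicate 2, circles for replicate 1, red for CCR2-/- and blue for wild type. Ccl5, Cxcl10 and Ccl22 lie below 0 and Ccl20 above 0 in all 4 pairs, while Ccl3 and Ccl4 lie below 0 in replicate 2 and above 0 in replicate 1.

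Xcl1, the XCR1 ligand lymphotactin, was high on the CD45RBlow arrays of replicate 1 only. It read 4.81 and 6.77 in CCR2-/- CD45RBlow cells (replicates 2 and 1) and 5.35 and 6.75 in wild-type CD45RBlow cells, against 5.59 and 5.38 in CCR2-/- CD45RBhigh cells and 5.46 and 5.09 in wild-type CD45RBhigh cells. The replicate 2 arrays of CD45RBlow cells lay within or below the range of the CD45RBhigh arrays. The averaged subset difference was 0.54 (SE 0.46, 95% interval -0.53 to 1.61, adjusted p = 0.612 by limma). The change between replicate numbers was -1.97 (SE 0.22, 95% interval -2.49 to -1.45, adjusted p = 0.0925), the same adjusted value as for Ccl4. The gene of its receptor, Xcr1, a marker of cross-presenting dendritic cells, read 4.31 to 4.58 on CD45RBlow arrays and 4.45 to 4.55 on CD45RBhigh arrays and was below the filter.

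Ccl20, the CCR6 ligand, ran opposite to Ccl5 and was higher in CD45RBlow cells. It read 5.90 and 7.95 in CCR2-/- CD45RBlow cells (replicates 2 and 1) and 7.34 and 8.30 in wild-type CD45RBlow cells, against 5.35 and 5.45 in CCR2-/- CD45RBhigh cells and 5.67 and 5.57 in wild-type CD45RBhigh cells. The CD45RBhigh arrays lay close together and below every CD45RBlow array, and the CCR2-/- CD45RBlow array of replicate 2 came nearest to them. Group means were 6.93 ± 1.45 in CCR2-/- CD45RBlow, 5.40 ± 0.07 in CCR2-/- CD45RBhigh, 7.82 ± 0.68 in wild-type CD45RBlow and 5.62 ± 0.08 in wild-type CD45RBhigh cells (SD, n = 2 each). The CD45RBlow groups were the higher of the 4, and their own difference was within the spread of their arrays.

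Averaged over the genotypes, Ccl20 was 3.64-fold higher in CD45RBlow cells (1.86, SE 0.42, 95% interval 0.87 to 2.85), which did not pass limma's test (adjusted p = 0.0656). With the replicate block it passed (SE 0.33, adjusted p = 0.0266), beside 1.95% of all genes called higher in that fit. This call was lost without any 1 of 4 arrays, with differences from 1.43 to 2.29 and adjusted p from 0.013 to 0.12 over the 8 arrays left out in turn. By pair, Ccl20 was 1.47-fold higher in CD45RBlow cells of CCR2-/- replicate 2, 5.65-fold in CCR2-/- replicate 1, 3.16-fold in wild-type replicate 2 and 6.67-fold in wild-type replicate 1. The genes most like it over the 8 arrays were Ankrd55 (r = 0.993), Fcrl1 (r = 0.990) and Il9 (r = 0.980). Ankrd55 was near the low end of the signal, reading 4.44 to 4.87 on CD45RBlow arrays and 4.33 to 4.35 on CD45RBhigh arrays, below every array's median. Il9, a cytokine gene of Th9 and Th2 cells, read 6.48 and 8.76 in CCR2-/- CD45RBlow cells and 8.34 and 10.12 in wild-type CD45RBlow cells, against 5.76 and 4.93 in CCR2-/- CD45RBhigh cells and 5.68 and 5.41 in wild-type CD45RBhigh cells. Among the ligands, Ccl20 correlated with Xcl1 (r = 0.79) and inversely with Ccl5 (r = -0.76).

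**Figure D4:**
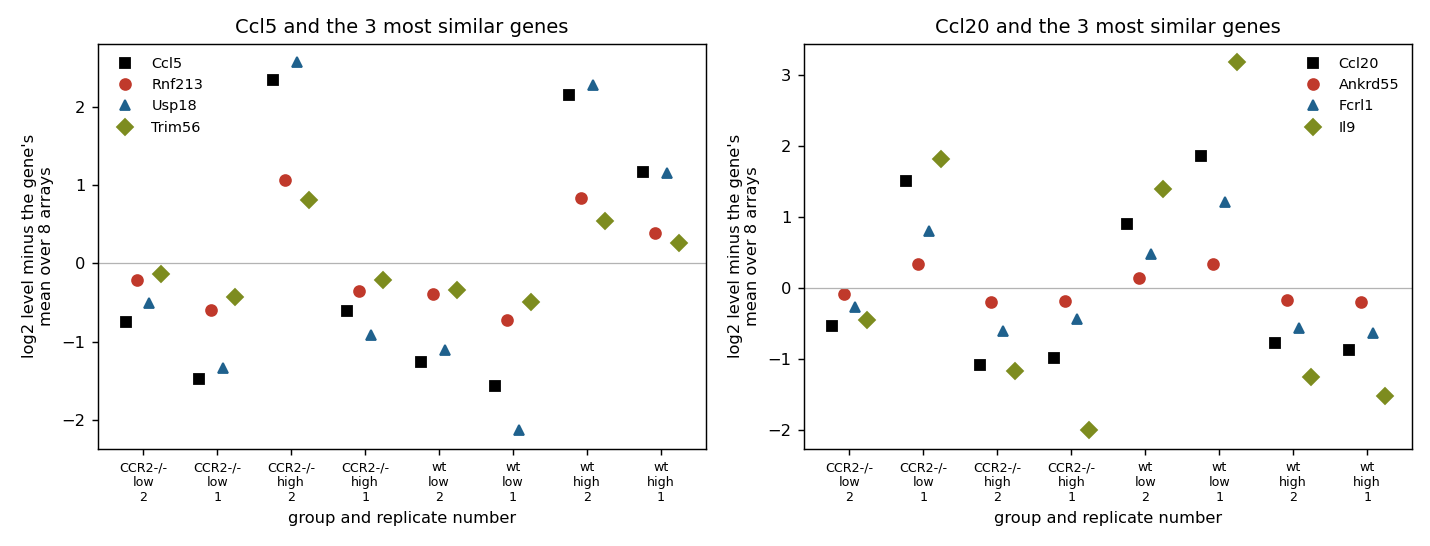
Log2 level of Ccl5 (left) and Ccl20 (right) and of the 3 genes most like each, as the difference from each gene's own mean over the 8 arrays (y axis, log2 units), by group and replicate number (x axis; wt is wild type). Ccl5, Rnf213, Usp18 and Trim56 are highest on the CD45RBhigh arrays other than CCR2-/- replicate 1, and Ccl20, Ankrd55, Fcrl1 and Il9 are highest on the CD45RBlow arrays other than CCR2-/- replicate 2.

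Ccl22 and Ccl17, the CCR4 ligands, parted from each other. Ccl22 read 4.72 and 4.87 in CCR2-/- CD45RBlow cells (replicates 2 and 1) and 4.89 and 4.66 in wild-type CD45RBlow cells, against 5.22 and 6.11 in CCR2-/- CD45RBhigh cells and 5.40 and 7.40 in wild-type CD45RBhigh cells. Every CD45RBlow array lay below every CD45RBhigh array, and the CD45RBhigh arrays of replicate 1 were the highest in both genotypes. The averaged subset difference was -1.25 (SE 0.41, 95% interval -2.21 to -0.28), or 2.38-fold lower in CD45RBlow cells, and did not pass limma's test (adjusted p = 0.163, or 0.0845 with the block). Ccl17 read 5.47 and 5.56 in CCR2-/- CD45RBlow cells and 5.59 and 5.56 in wild-type CD45RBlow cells, against 5.63 and 4.71 in CCR2-/- CD45RBhigh cells and 5.93 and 4.97 in wild-type CD45RBhigh cells. It was level across the CD45RBlow arrays and lowest on those CD45RBhigh arrays where Ccl22 was highest (r = -0.68 between the pair). Its averaged subset difference was 0.24 (SE 0.26, 95% interval -0.36 to 0.84, adjusted p = 0.717).

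The mean of the tested B cell markers was also highest on the CD45RBhigh arrays of replicate 1, but 1 of them, Cd79a, was tested only through those arrays. Of 6 listed B cell markers, 5 were measured and 4 tested, and the mean of those 4 was 5.69 and 5.69 in CCR2-/- CD45RBlow cells (replicates 2 and 1) and 5.83 and 5.67 in wild-type CD45RBlow cells, against 6.17 and 7.19 in CCR2-/- CD45RBhigh cells and 6.14 and 6.58 in wild-type CD45RBhigh cells. The highest 2 values fell on the arrays where Ccl22 was highest, although the order of those 2 arrays was reversed (r = 0.76 for Ccl22 and -0.77 for Ccl17 over the 8 arrays). Of the 4, 1 fell in CD45RBlow cells, beside 1.93% of all genes, and 0 rose, beside 1.1%. Ighm was the 1 that fell (-1.03, adjusted p = 0.0128, but -0.30 and 0.307 with the mean of its clusters). Leaving out replicate 1 of CCR2-/- CD45RBlow cells (adjusted p = 0.0568) or of wild-type CD45RBlow cells (adjusted p = 0.0773) ended this call. Cd79a, a component of the B cell receptor, read 3.77 to 3.91 on CD45RBlow arrays and 3.90 to 5.86 on CD45RBhigh arrays. Pax5, another defining marker, was below the filter. The gene most like Ccl22 was Cybb, a subunit of the phagocyte NADPH oxidase (r = 0.975), followed by Tmem108 (r = 0.945) and Nabp1 (r = 0.937); those most like Ccl17 were Brap (r = 0.982), Clcn7 (r = 0.977) and Usp31 (r = 0.973). Of the 7 dendritic cell markers, 6 were measured and averaged 4.88 to 4.92 on CD45RBlow arrays and 4.97 to 5.03 on CD45RBhigh arrays, with Itgax, Flt3, Xcr1 and Siglech below the filter. The 6 macrophage and monocyte markers averaged 4.58 to 4.72 on CD45RBlow arrays and 4.61 to 4.95 on CD45RBhigh arrays, with 5 below the filter and Cd68 called lower in CD45RBlow cells with the block (-0.53, adjusted p = 0.0244, lost in 7 of 8 cases with an array left out, up to 0.13). The 2 CD8 T cell markers averaged 5.80 to 5.93 on CD45RBlow arrays and 6.16 to 6.84 on CD45RBhigh arrays, and Cd8b1 fell with the block (-0.92, adjusted p = 0.0467, lost in 6 of 8 cases with an array left out, up to 0.16). The part of these cells in the ligand levels was not tested; in bulk samples fewer cells of a type and less RNA per cell cannot be told apart. The 3 measured NK cell markers averaged 4.23 to 4.36 over all arrays, with Ncr1 and Klrb1c below the filter.

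Ccl1 and Ccl2 stayed near the low end of the signal on all 8 arrays. Ccl2, the CCR2 ligand, read 4.39 and 4.57 in CCR2-/- CD45RBlow cells (replicates 2 and 1) and 4.41 and 4.57 in wild-type CD45RBlow cells, against 4.51 and 4.47 in CCR2-/- CD45RBhigh cells and 4.55 and 4.54 in wild-type CD45RBhigh cells. Its whole range was 0.19 log2 units, at percentiles 30.0 to 41.4 of the clusters on an array. The subset difference of Ccl2 was -0.03 (95% interval -0.22 to 0.16, adjusted p = 0.894 by limma), and its difference between CCR2-/- and wild-type cells was -0.03 (95% interval -0.23 to 0.16). Ccl1, the CCR8 ligand, read 4.25 and 4.40 in CCR2-/- CD45RBlow cells and 4.33 and 4.64 in wild-type CD45RBlow cells, against 4.17 and 4.28 in CCR2-/- CD45RBhigh cells and 4.14 and 4.26 in wild-type CD45RBhigh cells. It lay between percentiles 18.8 and 42.5, below the filter, and was not tested; the highest value was that of wild-type CD45RBlow replicate 1. At these signals a transcript close to the detection limit and its absence cannot be told apart.

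Counted together, 0 of the 9 tested ligands passed limma's test of the averaged subset difference without the block, beside 409 of 13508 genes (3.03%), and 4 had an unadjusted p under 0.05 (Ccl20, Ccl5, Ccl22 and Cxcl10), beside 18.1% of all genes. With the block 2 of 9 passed, beside 758 genes (5.61%). The median difference over the 9 ligands was -0.20, against -0.01 over all genes tested. Within CCR2-/- mice 0 of 9 passed, beside 0.333% of genes, and within wild-type mice 0 of 9 passed, beside 0.0888%; the lowest adjusted p of a ligand was 0.358 in CCR2-/- and 0.29 in wild-type mice, and 2 and 3 ligands had an unadjusted p under 0.05. In 3 of 9 ligands (Ccl5, Cxcl10 and Ccl22) every CD45RBlow array lay below every CD45RBhigh array, as in 8.13% of tested genes. In 1 of 9 (Ccl20) every CD45RBlow array lay above, as in 6.13% of genes. Cxcl10 passed the filter through its CD45RBhigh arrays only, so its place among these 3 and among the 4 above is no separate support.

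Genotype left no ligand past the test. Averaged over the subsets, CCR2-/- minus wild type ran from -0.56 (Ccl20) to 0.15 (Cxcl10) over the 9 ligands, with adjusted p from 0.94 to 0.997 by limma, and 0 of 13508 genes passed (0.0%). At an unadjusted p under 0.05 there were 0 of 9 ligands and 521 genes (3.86%). The precision was limited. The 95% interval was -1.64 to 1.14 for Ccl5, -1.69 to 1.33 for Ccl4 and -1.09 to 1.04 for Xcl1. It was -1.55 to 0.43 for Ccl20, -1.33 to 0.61 for Ccl22 and -1.23 to 0.55 for Ccl3. Changes of more than 2-fold in either direction thus remained possible for Ccl5, Ccl4 and Xcl1. For Ccl20, Ccl22 and Ccl3 a level more than 2-fold lower in CCR2-/- cells remained possible. In CD45RBlow cells the ligand differences ran from -0.89 to 0.29, with 0 ligands and 298 genes (2.21%) at an unadjusted p under 0.05 and 0 genes called (0.0%). In CD45RBhigh cells they ran from -0.80 to 0.22, with 0 ligands and 354 genes (2.62%) at that level and 0 genes called (0.0%). The interaction of genotype and subset ran from -0.67 to 1.09, with 0 ligands and 160 genes (1.18%) at that level and 0 genes called (0.0%).

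Some genotype differences ran the same way in all 4 pairs without passing, a pattern whose share over all genes was not counted. Ccl20 was lower in CCR2-/- cells by 1.43, 0.35, 0.33 and 0.12 log2 units in CD45RBlow replicates 2 and 1 and CD45RBhigh replicates 2 and 1. Ccl3 was lower in CCR2-/- cells by 0.12, 0.42, 0.22 and 0.60 in the same pairs. Ccl17 and Ccl2 were lower or level in CCR2-/- cells in all 4 pairs as well, down to -0.3 for Ccl17 and -0.06 for Ccl2. The widest single difference was that of Ccl5 in CD45RBhigh replicate 1, where the CCR2-/- array read 8.77 and the wild-type array 10.54, a difference of -1.77, while the CD45RBhigh pair of replicate 2 differed by 0.18. Ccl22 in the same pair of replicate 1 differed by -1.30.

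Replicate number was compared in a fit with the 4 groups. Over the groups, replicate 2 minus replicate 1 was 1.24 for Ccl5 (SE 0.39, 95% interval 0.30 to 2.18, adjusted p = 0.244) and ran from -0.75 (Ccl20) to 1.24 over the 9 ligands, of which 0 passed, beside 9 genes (0.0666%). The number effect of Ccl5 was positive in all 4 groups, from 0.30 in wild-type CD45RBlow cells to 2.94 in CCR2-/- CD45RBhigh cells. For Ccl20 it was -2.05 in CCR2-/- CD45RBlow and -0.97 in wild-type CD45RBlow cells, and within 0.11 of 0 in both CD45RBhigh groups. The median over the 9 ligands was 0.46, against 0.03 over all genes, and over the 21 interferon-response genes it was 0.84.

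Among the receptors of the 10 ligands, Ccr4 and Cxcr3 were higher in CD45RBlow cells. Of 11 listed receptor genes, 10 were measured and 6 tested, with Ccr1, Ccr3, Xcr1 and Ackr1 below the filter. In the averaged subset comparison 2 of 6 rose, beside 1.1% of all genes, and 0 fell, beside 1.93%. Ccr4, which binds CCL17 and CCL22, read 10.55 to 10.74 on CD45RBlow arrays and 9.43 to 9.86 on CD45RBhigh arrays (1.0, SE 0.09, adjusted p = 0.00441). Cxcr3, the CXCL10 receptor, read 7.36 to 7.98 on CD45RBlow arrays and 6.27 to 6.83 on CD45RBhigh arrays (1.18, SE 0.15, adjusted p = 0.0126). The Ccr4 call held with each of the 8 arrays left out (adjusted p up to 0.0361), while the Cxcr3 call ended on leaving out replicate 1 of CCR2-/- CD45RBlow cells (adjusted p = 0.0628) or of wild-type CD45RBlow cells (adjusted p = 0.0761). Ccr4 was higher where its ligand Ccl22 read lower, and Cxcr3 where Cxcl10 read lower, with the ligand differences short of the threshold. Ccl17, the other listed ligand of CCR4, was not lower there (0.24, adjusted p = 0.717 by limma). Ccr6, the CCL20 receptor, passed with the replicate block only (0.98, adjusted p = 0.0319, against 0.088 without it); it read 5.00 and 5.34 in CCR2-/- CD45RBlow cells (replicates 2 and 1) and 5.48 and 6.67 in wild-type CD45RBlow cells, against 4.61 and 4.56 in CCR2-/- CD45RBhigh cells and 4.50 and 4.88 in wild-type CD45RBhigh cells. The Ccr6 call with the block was lost in 6 of 8 cases with an array left out (adjusted p up to 0.121), and it held without CCR2-/- CD45RBhigh replicate 2 and without wild-type CD45RBlow replicate 2. Ccr6 and Ccl20 shared their highest array, wild-type CD45RBlow replicate 1. Ccr8, the CCL1 receptor, read 11.44 to 11.65 on CD45RBlow arrays and 10.52 to 11.28 on CD45RBhigh arrays and did not pass (0.54, adjusted p = 0.137).

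Most other listed chemokine ligands were below the filter. Of 28 listed genes, 26 were measured (Ccl19 and Ccl21a were not) and 9 tested, and their averaged subset differences had a median of 0.00. Without the block 0 of 9 passed, beside 3.03% of all genes. With the block 1 of 9 was called lower in CD45RBlow cells, beside 3.66% of all genes, and 0 higher, beside 1.95%. The 1 was Ccl27a, a skin-homing chemokine that binds CCR10 (-0.44, adjusted p = 0.0437 by limma, against 0.0524 without the block). Its call was lost whichever of the 8 arrays was left out (adjusted p from 0.056 to 0.19). Cxcl9 and Cxcl11, the other interferon-induced CXCR3 ligands, were below the filter; Cxcl9 read 4.26 to 4.53 on CD45RBlow arrays and 4.25 to 5.17 on CD45RBhigh arrays, and Cxcl11 read 3.74 to 3.87 on CD45RBlow arrays and 3.75 to 3.88 on CD45RBhigh arrays. Thus Cxcl9 was highest on 1 array, wild-type CD45RBhigh replicate 1, and not where Cxcl10 was highest.

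All 10 listed cytokine genes of activated T cells were tested, and 3 rose in CD45RBlow cells in the averaged comparison, beside 1.1% of all genes: Il4 (1.89, adjusted p = 0.00441), Il5 (0.82, adjusted p = 0.0286) and Il13 (2.07, adjusted p = 0.0437, or 0.0633 without the filter). Il4, Il5 and Il13 are known as products of Th2 cells. The Il4 call held with each array left out (adjusted p up to 0.0236). The Il5 call was lost without any 1 of the 4 wild-type arrays (adjusted p up to 0.153), and the Il13 call without any 1 of 6 arrays, all but those of CCR2-/- CD45RBhigh cells (up to 0.188). The others, including Ifng (1.13, adjusted p = 0.142), Tnf (0.16, adjusted p = 0.694) and Il2 (0.28, adjusted p = 0.69), did not pass, and 0 fell, beside 1.93% of all genes. Of 15 listed transcription factor genes 13 were tested, and 2 rose, beside 1.1% of all genes, and 1 fell, beside 1.93%. Prdm1, which encodes Blimp-1, rose by 1.67 (adjusted p = 0.00586) and Gata3, the Th2 regulator, by 0.73 (adjusted p = 0.0244, or 0.0542 with the mean of its clusters), while Stat4, a signal transducer of interleukin-12, fell by 0.66 (adjusted p = 0.0286). The Prdm1 call held with each array left out (adjusted p up to 0.0353). The Gata3 call was lost without any 1 of the same 6 arrays as that of Il13 (up to 0.108), and the Stat4 call without any 1 of 5 of them, CCR2-/- CD45RBlow replicate 2 being the exception (up to 0.15). In the genotype comparison averaged over the subsets 0 genes of any of these lists passed.

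Over the remaining ligands, likeness added the following genes, as descriptions over 8 arrays. Those most like Ccl3 were Snw1 (r = 0.968), Rai1 (r = 0.952) and Znfx1 (r = 0.947), and those most like Ccl4 were Vps18 (r = 0.942), Dhrsx (r = 0.942) and Olfr859 (r = 0.939). Those most like Xcl1 were Slc17a8 (r = 0.965), Il18bp (r = 0.950) and Sema6a (r = 0.943). The range of these genes was often narrow: Rai1 read 8.00 to 8.05 on CD45RBlow arrays and 7.96 to 8.12 on CD45RBhigh arrays. Ccl3 and Ccl4 also correlated with the interferon-response mean (r = 0.69 and 0.74), less closely than Ccl5 and Cxcl10 did, and Ccl17 with Ccl3 (r = 0.82). Ccl1 and Ccl2 ranged over less than 1 log2 unit, so no similar genes are named for them.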

How the data were processed

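Gene expression was measured on 8 single-colour Affymetrix whole-transcript arrays, 2 for each combination of genotype and CD45RB subset, read from the sample titles; samples with 2 in the title are replicate 2 and the others replicate 1. The deposited values are log2 expression levels of 41034 transcript clusters. The authors made them with RMA and Partek (versions not given), per the submitters' processing notes, and they were used as deposited. RMA equalises the arrays' distributions, which hides any shift common to most genes. The small number of arrays limits the precision.

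The platform's annotation gave exactly 1 symbol to 23521 clusters, several to 1814 and none to 15699; of the entrez identifiers of the first, 23328 matched RefSeq (GRCm38.p6), which changed 0 symbols. The brightest single-symbol cluster stood for each of 1082 genes with several. Of 22180 genes, 13508 reached the 40th percentile of clusters on 2 or more arrays and were tested with limma 3.58.1 in R 4.3.3: a mean per group (4 residual and 3.36 prior degrees of freedom), two-sided, adjusted by Benjamini-Hochberg over all genes tested, threshold 0.05. Subset effects are CD45RBlow minus CD45RBhigh and genotype effects CCR2-/- minus wild type. Replicate number was tested in a fit of group plus number (3 residual degrees of freedom), which also gave the replicate block. A test of the subset effect in replicate 2 minus that in replicate 1 (2 residual degrees of freedom) was added after the values had been seen, as was the same for genotype.

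Pairing was checked by the correlation, across genes, of replicate differences between groups. The 6 values ran from 0.109 to 0.531, all over the limit of 0.1. The main fit still used group means without the number, so its errors, intervals and p-values do not take up this pairing. For the subset and genotype effects, pairing by number entered only through the replicate block. The blocked value is given where it changes a call. The alternatives were no filter, a 60th percentile filter, the mean of a gene's clusters, median-centred arrays, array weights, a mean-variance trend, each array left out and the block.

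The 10 ligands and the gene lists were chosen with earlier results of these data known. Named were all 10 ligands, the 3 genes most like each ligand that ranged over more than 1 log2 unit (Pearson r over 8 arrays, gene models without a usual symbol skipped), and from each list up to 4 genes that passed or, where none did, the 2 with the smallest p. Further genes were named after their values were seen: Cxcl9, Cxcl11, Ifng, Tnf, Il2, Ccr8, Cd79a and markers below the filter. The lists of basophil and mast cell markers (4.19 to 4.43 on average) and neutrophil markers (4.46 to 4.81) were low on all arrays. The calculations were tested on simulated data in which the arrays scattered independently. That simulation held no pairing by replicate number, so it does not show the error rates of these tests on the real arrays.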

Additional observations from a re-analysis of the deposited data

Results flagged for a closer look

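The difference between CD45RBlow and CD45RBhigh cells had opposite signs in replicate 2 and replicate 1, in both genotypes, for 5 of 9 tested ligands. The same turn was seen in 6.28% of all tested genes. For Ccl2 the whole range over the arrays was 0.19 log2 units, near the low end of the signal, so its signs carry little. The subset effect in replicate 2 minus that in replicate 1 was -3.09 for Ccl4, -1.97 for Xcl1, -1.73 for Ccl3, -0.97 for Ccl17 and -0.20 for Ccl2 on the log2 scale. By limma's test of this difference, added after the values were seen, adjusted p was 0.0925 for Ccl4 and Xcl1, 0.0999 for Ccl3, 0.175 for Ccl17 and 0.735 for Ccl2, so none passed at 0.05 over all genes.

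The difference between CCR2-/- and wild-type cells also changed sign with the replicate number for Ccl4, in both subsets: it was 0.04 in CD45RBlow and 0.20 in CD45RBhigh cells of replicate 2, and -0.46 in CD45RBlow and -0.51 in CD45RBhigh cells of replicate 1. The genotype effect in replicate 2 minus that in replicate 1 was 0.61 (95% interval -2.76 to 3.98, adjusted p = 0.966 by limma). This interval spans both signs, and the share of all genes with such a sign change was not counted.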

How the results depend on the processing

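With 2 arrays a group, single arrays set several values. In the averaged subset comparison, where 0 of 9 ligands passed, 2 passed with the replicate block (Ccl5 and Ccl20), 1 on median-centred arrays and 1 with array weights (Ccl5, adjusted p = 0.0498 and 0.0448), and 0 to 2 with an array left out: Ccl5 and Cxcl10 without CCR2-/- CD45RBhigh replicate 1, Ccl5 without CCR2-/- CD45RBhigh replicate 2, Ccl20 without CCR2-/- CD45RBlow replicate 2 and Ccl22 without wild-type CD45RBhigh replicate 2. With the block the count of 2 ran from 0 to 3 with an array left out; it was 0 without wild-type CD45RBhigh replicate 1 or wild-type CD45RBlow replicate 2. Leaving out an array gave 0 to 1 in wild-type (Ccl5) and 0 to 2 in CCR2-/- cells (Ccl5 and Cxcl10). The genotype, interaction and replicate number comparisons stayed at 0 ligands under every alternative run. For the change of the subset effect with the number, 0 became 5 on median-centred arrays, 2 with the mean-variance trend (Ccl3 and Ccl4) and 0 to 5 with an array left out, 5 without either wild-type CD45RBhigh array.

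Signs turned with an array left out where the value was within its error. For the averaged subset effect Ccl3 ran from -0.59 to 0.19, Ccl4 from -1.18 to 0.13, Ccl17 from -0.01 to 0.48 and Ccl2 from -0.08 to 0.01; with the block Ccl3 ran from -0.55 to 0.16 and Ccl4 from -1.16 to 0.11. For the averaged genotype effect Ccl3 ran from -0.73 to 0.05, Ccl4 from -0.84 to 0.48, Ccl5 from -0.99 to 0.48, Cxcl10 from -0.23 to 0.53, Xcl1 from -0.51 to 0.47, Ccl17 from -0.41 to 0.07, Ccl22 from -0.86 to 0.14 and Ccl2 from -0.08 to 0.01. Counts over all genes moved as well: the 409 of the averaged subset effect became 758 with the block and 39 to 524 with an array left out; the 12 in wild type became 104 with the block, 24 centred, 116 weighted, 31 with the trend and 1 to 54 with an array left out; the 45 in CCR2-/- became 196 with the block, 83 centred, 7 weighted, 69 with the trend and 1 to 84 with an array left out; the 9 of the replicate number became 1 to 4 with an array left out; and the 0 of the changing subset effect became 101 centred, 5 with the trend and 0 to 79 with an array left out. With the mean of a gene's clusters, Ighm was -0.30 (adjusted p = 0.307) and Gata3 0.50 (adjusted p = 0.0542), and Il13 missed the threshold without the filter (adjusted p = 0.0633). The cause of these moves was not tested. Ccl1 and Ccl2 lay near the low end of the signal, where a difference may not be detectable.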
